A study of Mus musculus with 32 samples.

Results

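The 9 genes described here are Nudt3, Nudt4, Adar, Mfn2, Tspyl4, Dusp14, Nipsnap1, R3hdm4 and Hrk. They were picked by name from 5582 rows of a deposited count table, because their levels had differed between mice with human APOE4 and mice with human APOE3 in an earlier pass over the same counts. They lie on 6 chromosomes and belong to no single pathway. Since the APOE4 against APOE3 difference chose them, it is given below as a description, with the standard error (SE) of the fit and no test. The table they were picked from had itself been selected on injury, so their injury effects were tested but passing was largely set by that selection. The letter in the animal titles, alone or in combination with genotype, was not used to pick the genes and was tested. Injury in combination with genotype was tested too. That test is not free of the choice, since a like sign in sham and TBI was part of it.

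RNA-seq was made from the brains of targeted replacement mice, which carry human APOE3 (APOE3+/+) or human APOE4 (APOE4+/+) in place of mouse Apoe, on a C57BL/6 background. All animals had a craniotomy of 4.5 mm over the left parietal cortex under anaesthesia. TBI animals then received 1 controlled cortical impact, in which a metal tip of 3 mm was driven 1 mm into the cortex, and sham animals received none. Cortex and hippocampus of the injured slice were collected jointly at day 14. The groups held 7 APOE3 sham, 7 APOE4 sham, 8 APOE3 TBI and 8 APOE4 TBI animals. Another 2 libraries had labels that contradict each other and were left out. No age is given in the labels used here. In these 30 animals the animal-number prefix follows the APOE allele, so a difference between the APOE lines and a difference made by the allele cannot be told apart.

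The libraries held 2262242 to 8606717 counts each on the genes of the table, and 5408 genes passed the filter on low counts, all 9 described genes among them. The table holds genes that the authors had found to change with injury, with a highest deposited p-value of 0.0502. The excitatory neuron markers Slc17a7, Camk2a and Neurod6 and the inhibitory neuron marker Gad1 were present in every group. So was Prkcd, a marker of thalamus and striatum, with group medians of 18.0 and 22.4 CPM in sham and 33.9 and 37.4 after TBI. Injury moved the cell markers of the tissue, with 14 of 14 microglial and 12 of 12 astrocyte markers higher after TBI and 10 of 11 excitatory and 7 of 7 inhibitory neuron markers lower (edgeR quasi-likelihood test, Benjamini-Hochberg adjusted p under 0.05). Over all tested genes 93.6% passed, with 2558 higher and 2505 lower, so passing does not set the markers apart. In the comparison of APOE4 with APOE3 over both injury states, 0 of these 44 markers passed by edgeR, with 3 at an unadjusted p under 0.05, and DESeq2 and limma-voom called 1, Aldoc. Over all 5408 tested genes 99 passed by edgeR (1.83%), and 746 had an unadjusted p under 0.05. The microglial and astrocyte markers nonetheless lay mostly on the lower side in APOE4. Over both states 12 of 14 microglial markers (median log2 difference -0.09) and 10 of 12 astrocyte markers (median -0.041) were below 0. After TBI 14 of 14 microglial markers (median -0.13) were below 0. In either comparison 0 of the microglial markers had an unadjusted p under 0.05. The 4 tested oligodendrocyte markers went the other way, all above 0 over both states (median 0.11) and after TBI (median 0.16). The summed microglial markers of the genotypes overlapped after TBI, at 2054 to 3351 CPM in APOE3 and 1750.95 to 3832 in APOE4. The part of these markers in the genotype differences of the 9 genes was not tested. In bulk tissue, fewer cells of a type and less RNA per cell cannot be told apart.

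The 9 genes work in separate parts of the cell. Nudt3 and Nudt4 encode phosphohydrolases that take phosphate off inositol pyrophosphates, small energy-rich signals made by the Ip6k and Ppip5k kinases. Adar converts adenosine to inosine in double-stranded RNA, which keeps the cell's own RNA from being read as viral. Mfn2 fuses the outer membranes of mitochondria, whereas Nipsnap1 sits in mitochondria and, in human cell lines, marks damaged ones for removal. Tspyl4 belongs to a family related to nucleosome assembly proteins, and R3hdm4 carries an R3H domain, a fold that binds single-stranded nucleic acid. Dusp14 removes phosphate from MAP kinases, and Hrk, made mainly in neurons, is a BH3-only protein that sets off cell death by blocking survival proteins of the BCL2 family.

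The promoter windows of 4 of the genes are shown because 3 of them share the longest of the motifs searched, and the fourth, Hrk, has the largest APOE4 deficit. Each covers 250 bases before to 50 bases after a transcription start, 5′ to 3′ on the gene's strand (RefSeq, GRCm38.p6). Capitals mark the core of the NRF1 element in Nudt3, Nudt4 and Dusp14, and the core of the ATF4 composite element in Hrk.
Nudt3, chr17:27623403-27623702, minus strand: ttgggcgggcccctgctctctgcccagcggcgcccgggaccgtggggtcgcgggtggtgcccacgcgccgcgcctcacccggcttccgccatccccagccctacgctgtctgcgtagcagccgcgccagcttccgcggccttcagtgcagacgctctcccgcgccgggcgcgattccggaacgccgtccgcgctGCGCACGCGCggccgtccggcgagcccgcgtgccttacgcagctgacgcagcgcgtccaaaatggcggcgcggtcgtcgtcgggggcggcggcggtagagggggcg
Nudt4, chr10:95564097-95564396, minus strand: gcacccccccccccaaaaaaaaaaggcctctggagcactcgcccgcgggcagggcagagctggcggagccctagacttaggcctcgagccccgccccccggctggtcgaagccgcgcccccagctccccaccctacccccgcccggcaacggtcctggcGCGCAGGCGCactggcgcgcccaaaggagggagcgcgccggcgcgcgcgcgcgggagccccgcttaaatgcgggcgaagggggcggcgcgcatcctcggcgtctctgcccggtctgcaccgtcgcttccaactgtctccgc
Dusp14, chr11:84068308-84068607, minus strand: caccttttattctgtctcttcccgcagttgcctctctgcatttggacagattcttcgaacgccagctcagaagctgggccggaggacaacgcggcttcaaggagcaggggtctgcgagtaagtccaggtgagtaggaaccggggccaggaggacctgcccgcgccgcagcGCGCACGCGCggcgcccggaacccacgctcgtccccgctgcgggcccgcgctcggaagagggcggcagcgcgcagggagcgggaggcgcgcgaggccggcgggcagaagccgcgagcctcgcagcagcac
Hrk, chr5:118169514-118169813, plus strand: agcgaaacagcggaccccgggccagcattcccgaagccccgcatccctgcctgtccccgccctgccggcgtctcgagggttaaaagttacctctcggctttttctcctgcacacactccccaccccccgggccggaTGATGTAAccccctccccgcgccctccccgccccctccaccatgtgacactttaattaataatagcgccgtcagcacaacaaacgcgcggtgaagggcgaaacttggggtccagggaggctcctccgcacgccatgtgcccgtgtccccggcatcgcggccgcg

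The motifs below were searched on both strands, and matches of different motifs were counted separately where they overlapped. The NRF1 core, spelled GCGC, any base and then TGCGC, was present in 3 of the 9 genes against 8.30% of 4242 tested genes with a promoter window. A core of the ATF4 composite element, TGATGNAA, was found in Hrk alone among the 9 and in 3.47% of tested genes. The full cAMP response element TGACGTCA was found in Tspyl4 and in 3.23% of tested genes. A TATAAA stood in Nipsnap1 and in 10.2% of tested genes. The GC box GGGCGG was in 7 of the 9 and in 68.3% of tested genes, so it does not set them apart. The 14 windows of the 9 genes had a median GC content of 66.5%, against 60.3% for the tested genes. Their median ratio of observed to expected CG pairs was 0.928, against 0.676. The NRF1 core itself holds CG pairs, and the part of this base content in its share was not tested. These matches are letters in a window and say nothing of binding.

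Nudt3 (NCBI gene 56409, chromosome 17 from 27579382 to 27623452) was higher in APOE4 animals in either state. Among sham animals its level ran from 455 to 512 CPM, that is counts scaled by TMM to the same library size over the listed genes, median 490, in APOE3, and from 594 to 660, median 612, in APOE4. The lowest APOE4 sham thus lay above the highest APOE3 sham. After TBI the levels were 391 to 480, median 442, in APOE3 and 478 to 572, median 547, in APOE4. There 7 of 8 APOE4 animals lay above all 8 APOE3 animals. On the log2 scale, APOE4 minus APOE3 was 0.34 ± 0.039 (SE) in sham and 0.29 ± 0.037 after TBI.

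Nudt4 (NCBI gene 71207, chromosome 10 from 95547007 to 95564146), which encodes the second enzyme of this pair, differed less. In APOE3 sham animals it ran from 317 to 387 CPM, median 373, and in APOE4 sham animals from 402 to 444, median 415. These groups did not overlap. After injury the range was 278 to 343, median 321, in APOE3 and 279 to 401, median 349, in APOE4. The TBI groups overlapped, with 4 of 8 APOE4 animals above the highest APOE3 animal. APOE4 minus APOE3 was 0.20 ± 0.058 on the log2 scale in sham and 0.15 ± 0.055 after TBI. No run of 50 transcript bases was shared between Nudt3 and Nudt4, so reads of that length from one are not copies of the other. A read-through gene on the same strand, RPS10-NUDT3, covers 9.03% of the Nudt3 exon bases.

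Of the other 14 genes of inositol pyrophosphate metabolism listed, 4 were in the table and tested. Itpka, a neuronal kinase that adds phosphate to inositol trisphosphate, was higher in APOE4 over both injury states, by 0.22 ± 0.055 on the log2 scale (edgeR quasi-likelihood test, Benjamini-Hochberg adjusted p = 0.0270), with 0.25 in sham and 0.20 after TBI. Neither within-state difference passed alone, at adjusted p = 0.377 and 0.269. Ppip5k1, Itpkb and Ip6k3 had log2 differences of -0.035, 0.09 and -0.16 that did not pass. Over all 5408 genes, 99 passed in this comparison, which is 1.83%, and 746 had an unadjusted p under 0.05. These counts are the background for the family counts below.

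Adar (NCBI gene 56417, chromosome 3 from 89714469 to 89753455) was higher in APOE4. Sham levels were 457 to 554 CPM, median 493, in APOE3 and 553 to 618, median 604, in APOE4. A single APOE3 sham animal reached the APOE4 range, and 6 of 7 APOE4 animals lay above it. After TBI, Adar ran from 389 to 465, median 449, in APOE3 and from 473 to 585, median 563, in APOE4, and these groups did not overlap. It was the one gene of the 9 without overlap after injury. The log2 difference was 0.25 ± 0.044 in sham and 0.30 ± 0.041 after TBI. Of its exon bases, 16.8% overlap Chrnb2 on the opposite strand. The strand setting of the counting is not given in the sources used here, so reads from the shared bases cannot be assigned. Chrnb2, a nicotinic receptor subunit, itself had a log2 difference of -0.05 ± 0.042 (adjusted p = 0.719).

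The list of double-stranded RNA editing and sensing held 12 other tested genes. Of these, 0 passed between APOE4 and APOE3 over both states by edgeR, DESeq2 or limma-voom. At an unadjusted p under 0.05 there were 0, beside 746 of all 5408 genes. They included Adarb1, the other active editing enzyme, at 0.03 ± 0.040, and the sensors Ddx58 at 0.07 and Ifih1 at 0.09.

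Mfn2 (NCBI gene 170731, chromosome 4 from 147873586 to 147904909) ran from 409 to 481 CPM, median 461, in APOE3 sham animals. In APOE4 sham animals it ran from 495 to 555, median 518, with no overlap. After TBI the levels were 336 to 440, median 383, in APOE3 and 421 to 500, median 477, in APOE4. A single animal of either genotype crossed into the other's range there. Expressed as log2, APOE4 exceeded APOE3 by 0.19 ± 0.045 in sham and 0.28 ± 0.043 after TBI.

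Nipsnap1 (NCBI gene 18082, chromosome 11 from 4873951 to 4894201), the other mitochondrial gene, went the opposite way. It was 141 to 169 CPM, median 153, in APOE3 sham animals and 125 to 149, median 131, in APOE4 sham animals. After TBI it was 119 to 159, median 142, in APOE3 and 103 to 141, median 120, in APOE4. Both pairs of groups overlapped, with 4 of 7 and 4 of 8 APOE3 animals above every APOE4 animal. The log2 difference was -0.21 ± 0.058 in sham and -0.23 ± 0.054 after TBI. Of 14 other tested genes of mitochondrial fusion, fission and NIPSNAP-linked removal, 0 passed between genotypes by edgeR, DESeq2 or limma-voom. At an unadjusted p under 0.05 there were 3, beside 746 of all 5408 genes.

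Tspyl4 (NCBI gene 72480, chromosome 10 from 34297421 to 34301320) was higher in APOE4. Its sham range was 1434 to 1564 CPM, median 1496, in APOE3 and 1580 to 1890, median 1657, in APOE4, with no overlap. The TBI range was 1067 to 1338, median 1289, in APOE3 and 1275 to 1814, median 1544, in APOE4. Here 6 of 8 APOE4 animals exceeded the highest APOE3 animal. APOE4 exceeded APOE3 by a log2 of 0.17 ± 0.056 in sham and 0.27 ± 0.052 after TBI. Without the APOE3 TBI animal at 1067, replicate 8, the TBI value was 0.24 ± 0.048. The annotated antisense gene Gm47512 overlaps 37.8% of its exon bases. Of 6 other tested genes of the TSPY-like and nucleosome assembly family, 0 passed between genotypes by edgeR. At an unadjusted p under 0.05 there were 4, beside 746 of all 5408 genes. Nap1l2 was at 0.17 ± 0.051 (edgeR adjusted p = 0.0823) and was the 1 gene of the family that DESeq2 called, while limma-voom called 0.

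R3hdm4 (NCBI gene 109284, chromosome 10 from 79910052 to 79916930) was lower in APOE4. Sham levels were 186 to 213 CPM, median 197, in APOE3 and 148 to 184, median 176, in APOE4, with no overlap. After TBI they were 157 to 191, median 173, and 125 to 181, median 150. The highest APOE4 animal, at 181, lay among the APOE3 animals, and 6 of 8 APOE4 animals lay below every APOE3 animal. APOE4 minus APOE3 was a log2 of -0.23 ± 0.063 in sham and -0.20 ± 0.059 after TBI. Genes on the opposite strand overlap its exons, Gm26602 over 5.09% and Kiss1r over 4.42% of the bases. Of 3 other tested R3H genes, 0 passed by edgeR, DESeq2 or limma-voom. At an unadjusted p under 0.05 there was 1, beside 746 of all 5408 genes.

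Dusp14 (NCBI gene 56405, chromosome 11 from 84048033 to 84069256) had the largest APOE4 excess over both states. In sham animals it was 78.7 to 117 CPM, median 92.9, in APOE3 and 110 to 141, median 128, in APOE4. After TBI it was 54.0 to 86.0, median 71.2, in APOE3 and 66.9 to 108, median 88.2, in APOE4. The groups overlapped in both states, with 5 of 7 and 4 of 8 APOE4 animals above every APOE3 animal. Its counts were the lowest of the 9, from 160 to 895 per library, and its standard errors the widest. The log2 difference was 0.37 ± 0.091 in sham and 0.32 ± 0.087 after TBI. Of 11 other tested dual specificity phosphatases, 0 passed between genotypes by edgeR, DESeq2 or limma-voom. At an unadjusted p under 0.05 there was 1, beside 746 of all 5408 genes.

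Hrk (NCBI gene 12123, chromosome 5 from 118169764 to 118189478) had the largest APOE4 deficit. APOE3 sham animals ran from 175 to 228 CPM, median 196, and APOE4 sham animals from 147 to 182, median 158. A single animal of either genotype crossed over. After TBI the range was 215 to 266, median 242, in APOE3 and 138 to 228, median 173, in APOE4, and again 7 of 8 APOE3 animals lay above every APOE4 animal. The log2 difference was -0.31 ± 0.074 in sham and -0.42 ± 0.068 after TBI. Of 8 other tested BCL2 family genes, 0 passed between genotypes by edgeR, DESeq2 or limma-voom. At an unadjusted p under 0.05 there were 0, beside 746 of all 5408 genes. The other cell death triggers Bbc3, Bcl2l11 and Bmf were at -0.12, 0.01 and 0.15.

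**Figure D1:**
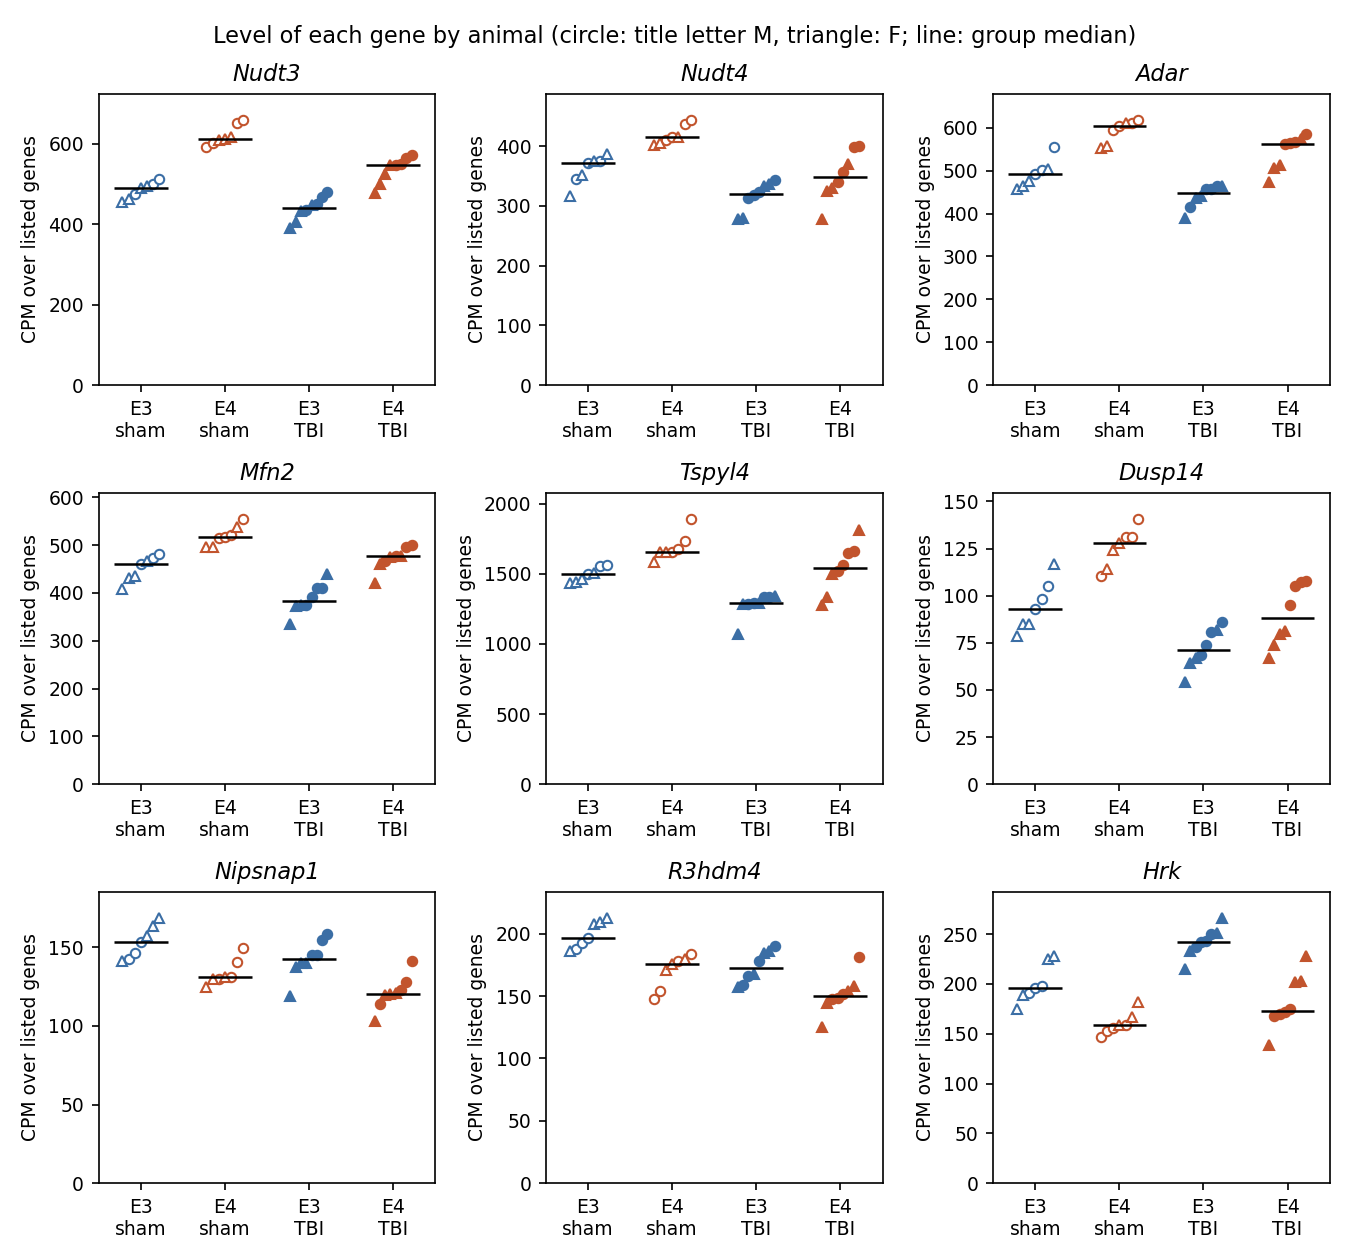
CPM over the listed genes (y axis, from 0) for each of 30 animals in the 4 groups (x axis, APOE3 as E3 and APOE4 as E4), 1 panel per gene, with a line at each group median and the title letter as the symbol. In sham, Nudt3, Nudt4, Mfn2, Tspyl4 and R3hdm4 show no overlap between genotypes, and after TBI Adar alone does.

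Counted over the 9 genes, the genotypes did not overlap for 5 genes in sham, where 0.555% of all genes did not overlap, and for 1 gene after TBI, where 0.166% did not. Over both states they overlapped for all 9, as for every tested gene (0.0% without overlap). For scale, 0.222% of tested genes passed the edgeR test between genotypes in sham and 0.518% after TBI. Nothing is read from these shares, since the same contrast chose the genes. The median absolute log2 difference of the 9 was 0.23 in sham and 0.28 after TBI, against 0.06 and 0.07 over all genes. The plot of the genotype differences puts both states side by side and shows the sign kept in each gene, which is part of how the genes were chosen. Within animals titled M or titled F, in either state, the difference also kept its sign in 36 of 36 strata, which share those same animals.

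**Figure D2:**
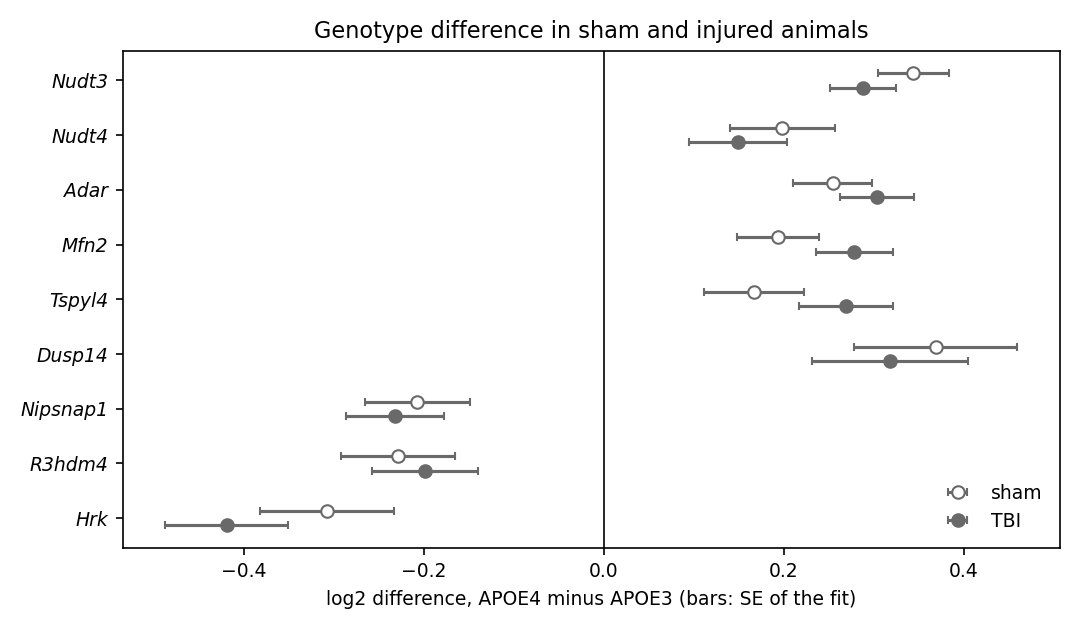
Log2 difference, APOE4 minus APOE3 (x axis), with the SE of the fit, for each gene in sham (open) and TBI (filled) animals. 6 genes lie right of 0 and 3 left of it in both states, from -0.42 for Hrk after TBI to 0.37 for Dusp14 in sham.

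Whether injury changed the genotype difference was tested as an interaction in the same fit. A like sign in both states was part of how the genes were chosen, which favours a small interaction in advance. None of the 9 passed (edgeR quasi-likelihood test, Benjamini-Hochberg adjusted p = 1.0 for each), and 0.0% of all tested genes passed, with 112 at an unadjusted p under 0.05 and 0 passing by DESeq2 or limma-voom. The change of the genotype difference with injury ran from -0.11 ± 0.10 for Hrk to 0.10 ± 0.076 for Tspyl4. Its 95% intervals were -0.16 to 0.050 for Nudt3, -0.069 to 0.17 for Adar and -0.31 to 0.086 for Hrk. Changes of up to these sizes are compatible with the data, so a stable difference is not shown.

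Injury lowered 8 of the 9 genes and raised Hrk in the comparison of TBI with sham over both genotypes. All 9 passed (edgeR quasi-likelihood test, adjusted p from 2.69e-07 to 0.00528). The table was selected on this contrast and 93.6% of its genes passed, so passing does not set the 9 apart. Dusp14 fell most, by 0.45 ± 0.063 on the log2 scale (a change of -27.0%). Nudt4 fell by 0.23 ± 0.040, Tspyl4 by 0.18 ± 0.038, Nudt3 by 0.18 ± 0.027, R3hdm4 by 0.18 ± 0.043, Mfn2 by 0.17 ± 0.031, Adar by 0.14 ± 0.030 and Nipsnap1 by 0.12 ± 0.040. Hrk rose by 0.23 ± 0.050. Neuron markers fell and microglial and astrocyte markers rose in the same comparison, while of 4 oligodendrocyte markers 2 rose and 2 fell. The part of these markers in the changes of the 9 genes was not tested. The median absolute change of the 9, 0.18, was below that of all genes, 0.26.

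These injury falls depend on the scaling. TMM scaling, used above, assumes that rises and falls balance over the listed genes, and gave 2558 genes higher and 2505 lower after TBI. Scaling to total counts gave 2819 higher and 1186 lower, and moved the median of all genes from 0.10 to 0.20. Under it the 8 genes were still below 0, but only Nudt3 (-0.08), Nudt4 (-0.13), Mfn2 (-0.08) and Dusp14 (-0.36) passed. Adar (-0.047, adjusted p = 0.146), Nipsnap1 (-0.028, adjusted p = 0.529), Tspyl4 (-0.08, adjusted p = 0.0506) and R3hdm4 (-0.08, adjusted p = 0.0614) did not. Hrk rose under either scaling and was at 0.33 with total counts.

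Within APOE3 animals, 7 of the 9 genes fell with injury and Hrk rose by 0.29 ± 0.071, while Nipsnap1 was at -0.11 ± 0.056 (edgeR adjusted p = 0.0687). The share of all genes passing there was 73.7%. Within APOE4 animals, 8 fell and Hrk rose by 0.18 ± 0.072 (adjusted p = 0.0334), with 65.4% of all genes passing. These counts shrink under total-count scaling. There 3 genes fell in APOE3 (Dusp14 at -0.33, Mfn2 at -0.12 and Tspyl4 at -0.13) and 3 in APOE4 (Dusp14 at -0.39, Nudt3 at -0.11 and Nudt4 at -0.16), while Hrk rose in both, by 0.39 and 0.27. Sham and TBI animals did not overlap for Tspyl4 in APOE3, where 19.0% of all genes did not overlap. In APOE4 they did not overlap for Nudt3, Nudt4 and Dusp14, against 11.6% of all genes. Set side by side, the median of injured APOE4 animals lay above that of uninjured APOE3 animals for Nudt3 (547 and 490), Adar (563 and 493), Mfn2 (477 and 461) and Tspyl4 (1544 and 1496). For Nudt4 (349 and 373) and Dusp14 (88.2 and 92.9) it lay below. Hrk in injured APOE4 animals, at 173, was below its median in uninjured APOE3 animals, at 196. All of these medians are TMM levels, and their order under total-count scaling is not given here.

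**Figure D3:**
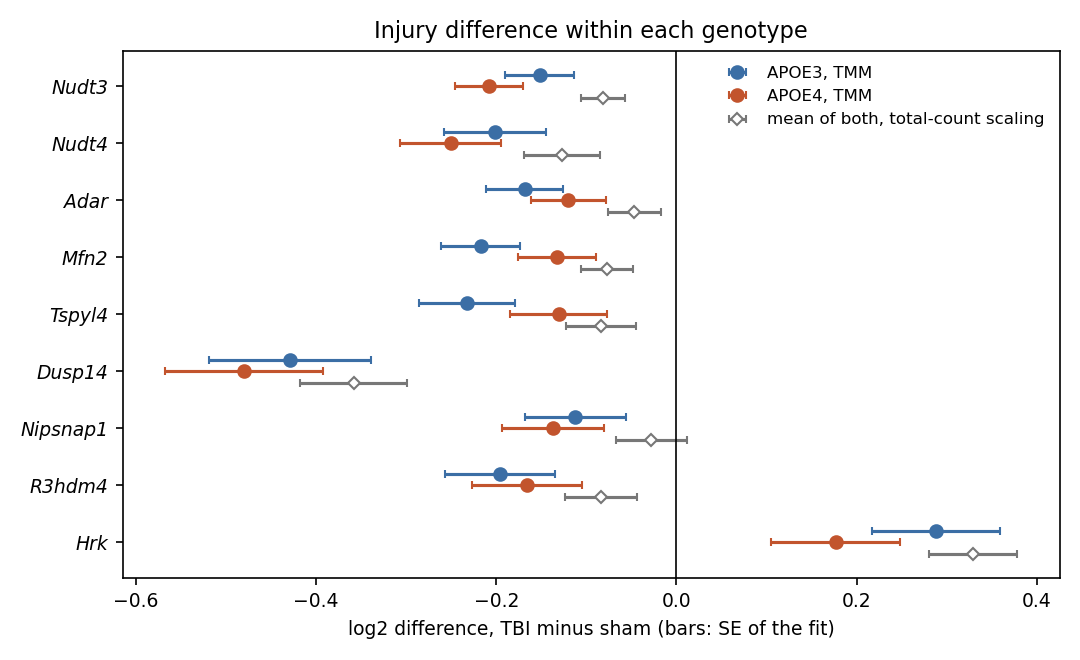
Log2 difference, TBI minus sham (x axis), with the SE of the fit, within APOE3 and APOE4 animals under TMM scaling, and as the mean of both under total-count scaling (diamonds). 8 genes lie below 0 and Hrk above it in each genotype, and the diamonds lie to the right of the TMM values, with Nipsnap1 at -0.028.

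The family genes in the table moved with injury in different ways. They come from the part of each family that the authors had selected on injury, so passing was largely set in advance. Of the other genes listed, 12 of 19 double-stranded RNA genes, 11 of 32 phosphatases and 8 of 22 BCL2 family genes were tested. Over all 5408 tested genes, 2558 were called higher and 2505 lower. Among the double-stranded RNA genes, 11 of 12 rose, led by p by the RNA sensing genes Oasl2 (2.01), Ddx58 (1.15) and Eif2ak2 (0.98), and only Adarb1 fell (-0.29), while Adar itself fell by 0.14. The same 11 and 1 were counted under total-count scaling. Of the 11 dual specificity phosphatases 9 fell, as Dusp14 did, with Dusp3 at -0.36, Dusp6 at -0.52 and Dusp5 at -0.78, and 1 rose (6 and 2 under total counts). Of 8 BCL2 family genes 6 rose, as Hrk did, with Bcl2a1b at 2.43, Bmf at 0.74 and Bcl2l11 at 0.45, and 2 fell (6 and 0 under total counts). Bcl2a1b restrains cell death, whereas Bmf and Bcl2l11 promote it.

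All 6 of the TSPY-like and nucleosome assembly genes fell, with Tspyl1 at -0.21, Nap1l2 at -0.28 and Tspyl5 at -0.21, and 3 of 6 did under total counts. Of 14 mitochondrial genes 10 fell and 3 rose, among them Bnip3 and Rhot2, both at -0.16, and Gdap1 at -0.19, but under total counts the split became 1 lower and 4 higher. Of 3 R3H genes, the RNA-binding R3hdm2 and R3hdm1 fell by 0.44 and 0.45, also under total counts. The third lay above 0 without passing, and was called higher under total counts. Of the inositol enzymes, Ppip5k1 (-0.28) and Itpka (-0.29) fell and Itpkb rose (0.30), with a list median of 0.0095, and under total counts 2 were called in each direction. The lists' medians were 1.24 for the double-stranded RNA genes, 0.31 for the BCL2 family, -0.12 for the mitochondrial genes and -0.29 for the phosphatases, beside 0.10 for all tested genes. Microglial markers summed to 919 to 1255 CPM in sham and 1750.95 to 3832 after TBI, and excitatory neuron markers to 22476 to 26909 and 16083 to 22865.

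**Figure D4:**
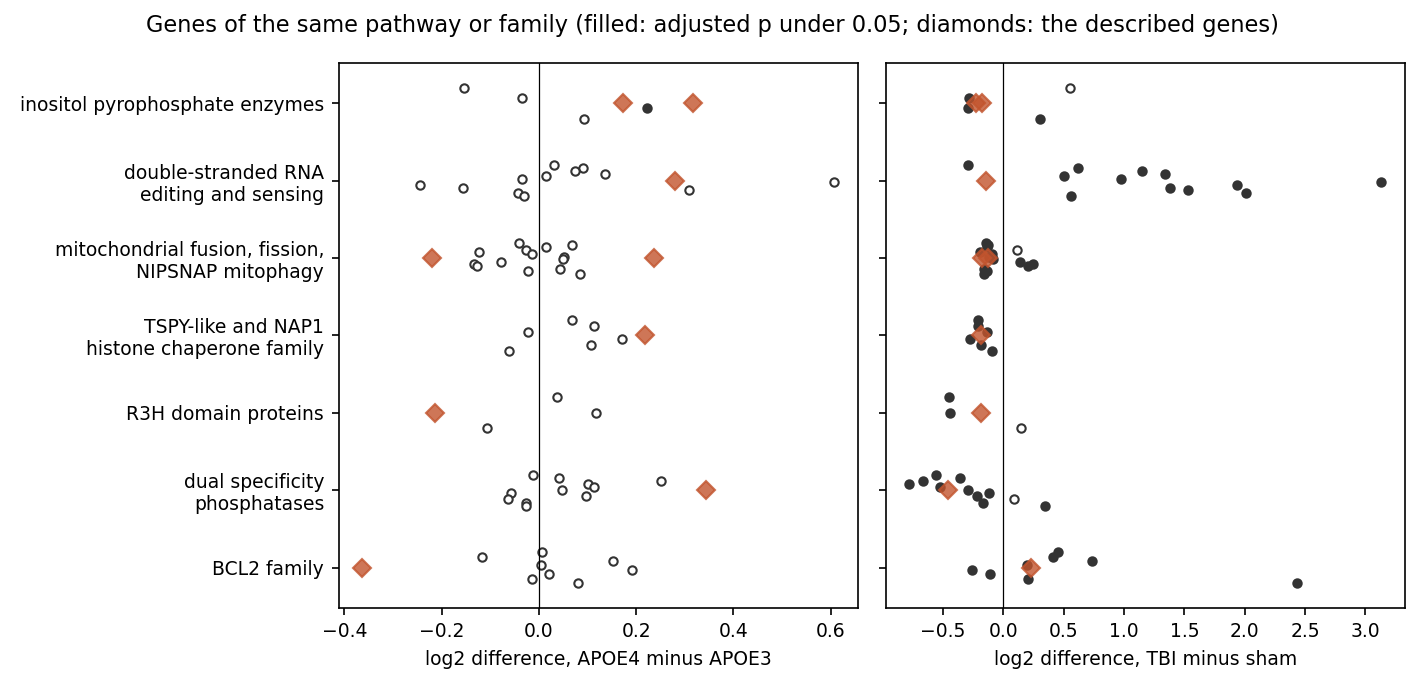
Log2 differences of the other tested genes of each family (circles, filled where the edgeR adjusted p was under 0.05) and of the 9 described genes (diamonds), for APOE4 minus APOE3 over both states (left) and TBI minus sham (right). On the left a single circle, Itpka at 0.22, is filled, and on the right the double-stranded RNA genes reach 3.13.

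The 9 genes stand far apart in the genome. The nearest pair, R3hdm4 and Nudt4 on chromosome 10, are 15.6 Mb apart, Tspyl4 and R3hdm4 are 45.6 Mb apart, and Nipsnap1 and Dusp14 on chromosome 11 are 79.2 Mb apart. Of the genes within 1 Mb of any of the 9, 105 were tested, and 1 passed in APOE4 against APOE3 over both states, a share of 0.952% beside the 1.83% over all genes. That gene was Uqcc2, an assembly factor of mitochondrial complex III that lies 445 kb from Nudt3 and was lower in APOE4, at -0.17 ± 0.039 (edgeR adjusted p = 0.0118). Within 5 Mb, 361 were tested and the same single gene passed, a share of 0.277%. The table holds only injury-responsive genes, so most genes of these windows were not analysed here.

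Several of the nearest neighbours were near 0. Ube2n, 1.35 kb from Nudt4, was at 0.0016 ± 0.038, Thoc5, 1.08 kb from Nipsnap1, at 0.0064 ± 0.035, and Rnft2, 1.26 kb from Hrk, at 0.0017 ± 0.039. Nt5dc1, 2.29 kb from Tspyl4, was at 0.22 ± 0.097 and did not pass (adjusted p = 0.292). On the other side of Tspyl4, its relative Tspyl1 was at 0.07 ± 0.033. Fv1 and Plod1 beside Mfn2 were both at 0.07, Pacsin1 beside Nudt3 at 0.02 and Arid3a beside R3hdm4 at -0.014. Grm4, on the other side of Nudt3, was at 0.27 ± 0.13, and Nos1, 211 kb from Hrk, at -0.19 ± 0.072, and neither passed. The remaining nearest tested neighbours lay between Gatsl3 beside Nipsnap1, at -0.09, and Mrm1 beside Dusp14, at 0.09.

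**Figure D5:**
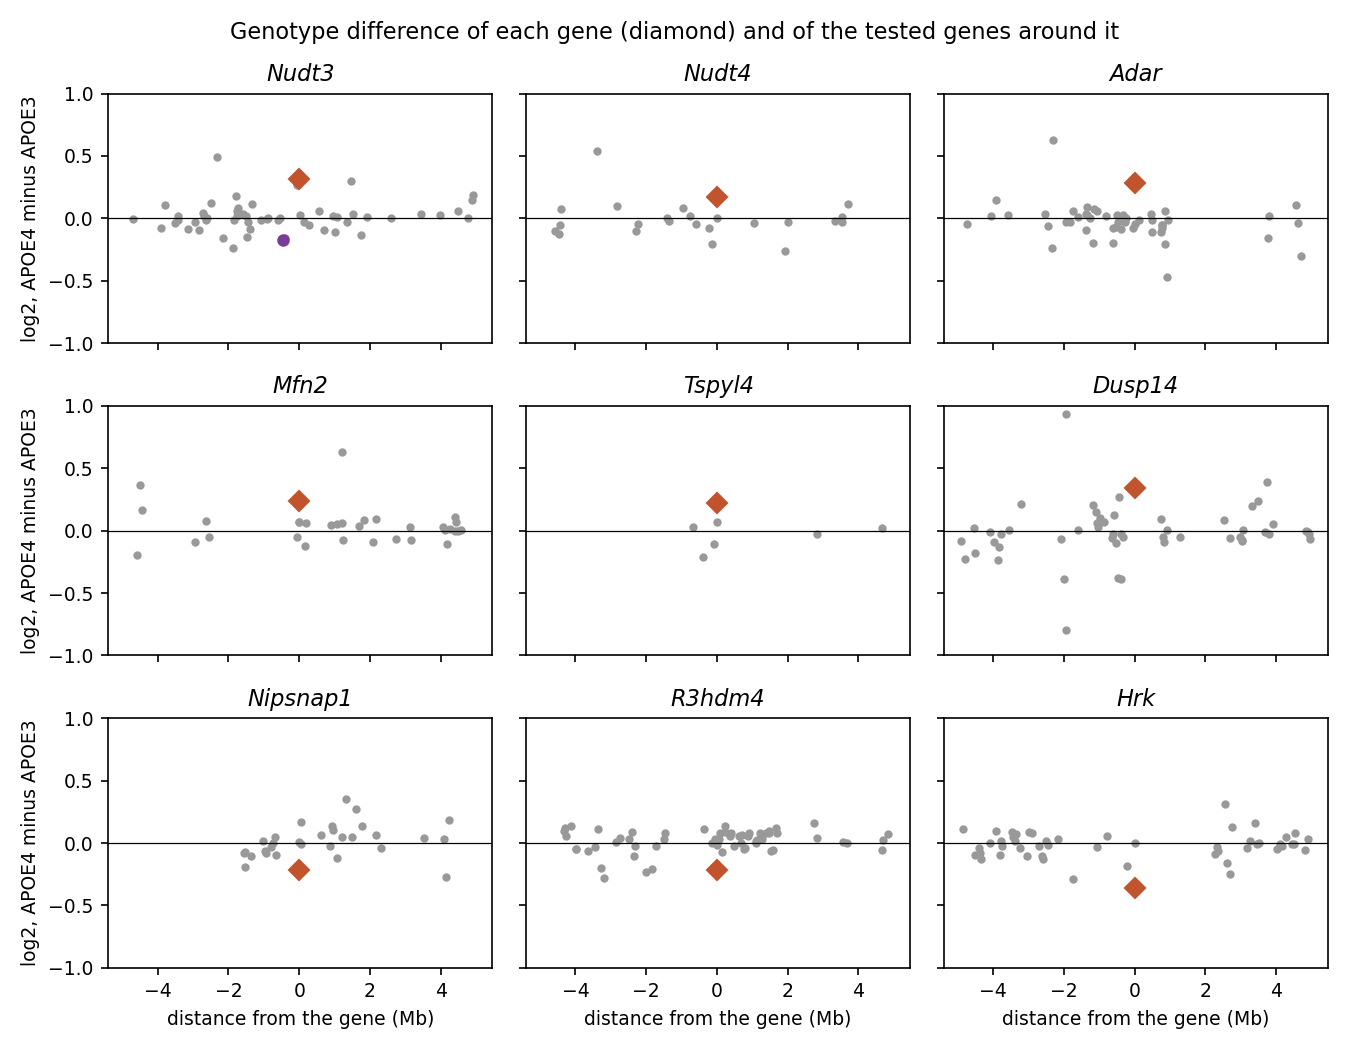
Log2 difference, APOE4 minus APOE3 over both states (y axis), of the tested genes within 5 Mb of each gene, against their distance from it in Mb (x axis), with the gene itself as a diamond and genes with an edgeR adjusted p under 0.05 in purple. Uqcc2, at -0.17 near Nudt3, is the only purple point.

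Animal titles carry an M (15 animals) or an F (15 animals) whose meaning the labels leave unstated. Between the letters 3 of the 9 genes passed, all lower in animals titled F, with Dusp14 at -0.22 ± 0.063, Adar at -0.10 ± 0.030 and Nudt3 at -0.09 ± 0.027 on the log2 scale (edgeR adjusted p = 0.0166, 0.0257 and 0.0212). Over all genes 16.7% passed. Under total-count scaling Dusp14 alone of the 9 passed, at -0.20, where 839 of 5408 genes passed. In shallow libraries and in deep libraries, each taken alone, 0 of the 9 passed. Over all tested genes 322 of 5209 passed in shallow libraries and 0 of 5475 in deep ones, so the deep result does not set the 9 apart. With the conflicting libraries placed by source name only Adar passed (398 of 5352 genes over all), and by title Adar and Dusp14 (710 of 5315). Cell markers moved with the letter too. Microglial markers were on the higher side in F in 14 of 14 (4 passed, median 0.25) and astrocyte markers in 11 of 12 (3 passed, median 0.13), while 3 of 11 excitatory neuron markers passed as lower and 0 of 7 inhibitory ones passed, with 2 at an unadjusted p under 0.05. Their part in the letter differences of the 3 genes was not tested. The difference between genotypes did not pass a test for depending on the letter in any of the 9 (edgeR adjusted p = 0.996), nor in any tested gene (0.0%, with 212 at an unadjusted p under 0.05 and 0 by DESeq2 or limma-voom). For Hrk the 95% interval of that dependence was -0.062 to 0.33.

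Across the 30 animals the 9 genes did not form 1 pattern. Adar ran with Tspyl4 (Pearson r of log2 CPM 0.91) and Nudt3 (0.90), and against Hrk (-0.89). R3hdm4 and Nipsnap1 ran together (0.68) and were close to unrelated to Hrk, although all of them were lower in APOE4 (0.28 and 0.27). These r values pool 4 groups that were chosen to differ and are a description. Among the tested genes outside the 9, the gene most like each of 8 of them, by r over the 30 animals, was Atf4 for Nudt3 (0.90), Btrc for both Adar and Mfn2 (0.90 each), Bcat1 for Tspyl4 (0.93), Spry2 for Dusp14 (0.89), Ica1 for Nipsnap1 (0.88), Rundc3a for R3hdm4 (0.83) and Pon2 for Hrk (0.84). With the group means removed, r stayed at 0.86 for Bcat1 and Tspyl4 and at 0.73 for Spry2 with Dusp14. It was 0.32 for Atf4 with Nudt3 and 0.34 for Pon2 with Hrk, pairs whose likeness lay mostly in the group means.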

How the data were processed

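Per the file headers, the deposited table gives unnormalised counts of reads for 32 libraries and, from the authors' own injury comparison, a log2 coefficient and a p-value for each gene. Subread 1.5.0, edgeR 3.14.0 and the build mm10 appear in the submitters' processing notes. Annotation and strand setting are not given in the sources used here. In the authors' deposited table the 9 genes have p-values from 1.58e-05 to 0.0463.

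Groups came from the labels, and 2 libraries whose labels conflict (E2073, F1372) were left out. Counts were fitted with edgeR 4.0.16 in R 4.3.3 (TMM, filterByExpr, quasi-likelihood F-tests), with 4 groups and the title letter as terms. Adjusted p-values are Benjamini-Hochberg values over 5408 genes, called under 0.05, and 174 genes were dropped for low counts. The SE was taken from the log2 difference and its F, and intervals are 95%. Replicates are separate animals by number. Of the gene identifiers, 5557 matched RefSeq (GRCm38.p6) for coordinates.

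The genes and lists were chosen with earlier results of these data known. All 9 genes are named. From each family list, genes passing between genotypes were named, then up to 3 with the smallest injury p. Beside these the nearest neighbours and the most similar gene are given, and other named genes were chosen after their values were seen. Alternatives were DESeq2 1.42.0, limma-voom (limma 3.58.1), total-count scaling, no filter, other covariates, both placements of the conflicting libraries, single letters, depth classes and a threshold of 0.01. The fit was tested on simulated data. The gene most like Nudt4 is not reported here.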

Additional observations from a re-analysis of the deposited data

Results flagged for a closer look

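In 1 of 36 sets of animals (9 genes in 4 groups), the lowest or highest animal stood apart from its group: Tspyl4 in APOE3 TBI animals, where replicate 8 was at 1067.05 CPM and the other 7 animals lay between 1282 and 1338. Chance puts about 1 in 20 such sets past this limit. The same library had, among the 30 animals, the largest median absolute log2 deviation from the 30-animal medians over the 4051 tested genes whose mean level was 4 or more in log2 CPM, 0.31, against a median of 0.12 over the 30 animals. Without it, the Tspyl4 difference between APOE4 and APOE3 after TBI was 0.24 in place of 0.27, and the fall of Tspyl4 with injury over both genotypes was -0.15 in place of -0.18 (edgeR adjusted p = 0.000288).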

How the results depend on the processing

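No genotype difference of the 9 genes, and no injury change averaged over genotypes, changed sign under any of 13 alternatives, including the one without APOE3_TBI replicate 8, which was chosen after seeing the data. Of 648 tested values 23 changed sign, none of them passing in either fit: 11 of the injury by genotype interaction, 9 of the letter by genotype interaction, 2 of the letter (R3hdm4) and 1 of injury in APOE3 (Nipsnap1, 0.025 with M only). Of 351 genotype values 343 moved by less than 1 SD between replicates. The 8 others were Adar in shallow libraries (0.17 in sham, 0.22 after TBI, 0.19 over both) and in deep ones after TBI (0.39), Nipsnap1 in sham by title (-0.09) and with M only (-0.10), Mfn2 in sham by title (0.11) and Nudt3 after TBI by source name (0.37). Of the tested values, 74 no longer passed and 2 newly passed. Within single letters 6 of the 8 injury falls passed, with the conflicting libraries placed by source name 7, and in shallow libraries 7. Within APOE3, 7 falls passed in the main fit and 2 in shallow libraries. With F only 4 did, among them Nipsnap1, which was not one of the 7. With M only 5 passed, and 6 with the conflicting libraries placed by source name. Within APOE4, where 8 falls passed, 4 did so with F only and 3 with M only. Deep libraries gave 2 falls there, shallow ones 3, placement by title 4 and placement by source name 6. The rise of Hrk passed in neither genotype with F only or in shallow libraries. In deep libraries and with placement by source name it passed within APOE3 but not within APOE4. The counts over all genes moved by more than 1.5 times from 12 (APOE4 against APOE3 in sham), 28 (in TBI), 99 (over both), 5063 (injury), 3983 (injury in APOE3), 3536 (injury in APOE4) and 902 (title letter) as follows. DESeq2 gave 21 in sham and 61 in TBI, and limma-voom 43 in TBI. Without the title letter the counts were 7 and 18. Placing conflicting libraries by title gave 5, 13 and 56 over both, and by source name 6 in sham and 398 for the letter. M animals alone gave 7, 45 and 63, with 3152, 2169 and 1253 for injury over both, in APOE3 and in APOE4. F animals alone gave 1, 1 and 4, with 2125 and 2043 for injury in APOE3 and APOE4. Shallow libraries gave 2, 3 and 7, with 3176, 1687 and 1866 for injury and 322 for the letter. Deep libraries gave 2, 3 and 6, with 2594 and 1341 for injury in APOE3 and APOE4 and 0 for the letter. A threshold of 0.01 gave 7, 12 and 37, with 2169 for injury in APOE4 and 313 for the letter. Single letters and depth classes hold only part of the animals, and for the other settings the cause was not tested. Depth limits Dusp14 most, at 160 counts in its lowest library. No paired analysis was possible because the replicate numbers were given in accession order and each is a separate animal.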

Other observations

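The library E2073, labelled APOE4 by both of its labels and as sham by one and TBI by the other, had Nudt3 at 820 CPM, above all 30 animals. Its Nipsnap1, at 202, was also above all 30 animals. Adar (464) and Mfn2 (338) lay in the APOE3 range and below the APOE4 range, while Hrk (144), R3hdm4 (132), Dusp14 (136) and Nudt4 (397) lay in the APOE4 range only, and Tspyl4 (1489) in both. Over the 4051 tested genes whose mean level was 4 or more in log2 CPM, E2073 deviated from the 30-animal medians by a median absolute log2 of 0.35, beyond the 0.08 to 0.31 of the 30 animals. The library F1372, labelled APOE3 by its title and APOE4 by its source name, had Nudt3 at 654, Nudt4 at 362, Adar at 622, Mfn2 at 538, Tspyl4 at 1798, Dusp14 at 128, Nipsnap1 at 136, R3hdm4 at 175 and Hrk at 163 CPM. Of these, 8 fell within the range of the 15 APOE4 animals and 3 within that of the 15 APOE3 animals, with Adar just above both. Neither library entered a comparison.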
